A study of Zea mays with 48 samples.

Results

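Roots of maize seedlings after 6 h of tunicamycin were compared with roots at 0 h, in 3 libraries a side, which makes 6 of the 24 libraries of the series. The libraries were taken by the column names of the deposited count table, and they correspond to 12 of the 48 lane samples, 2 for each library. All plants belonged to the inbred line B73, and the labels name no allele or transgene. Seedlings stood on moist paper in glass bottles, and tunicamycin was given at 5 µg/ml. The 0 h group is the start of the same time course, and its columns are named as treated at 0 h, not as mock. The labels give a mock for 48 h but none for 6 h, so treatment and hours passed since 0 h cannot be told apart in this comparison. How many seedlings went into a library is not stated.

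Tunicamycin blocks the enzyme that starts the sugar chain of N-linked glycoproteins, so that these proteins fold poorly in the endoplasmic reticulum. Plant cells answer with the unfolded protein response. Its membrane sensor IRE1 splices the mRNA of the transcription factor bZIP60, bZIP17 and bZIP28 are released from the membrane by proteolysis, and chaperones and degradation factors of the endoplasmic reticulum are then transcribed. The count table names genes by identifiers alone, and 0 of its 23753 identifiers matched the reference table of 49888 maize genes. The genes of this response, the marker genes of root cell types and the labelled tissue could therefore not be looked up. Only 4 identifiers are named, with no role, and the remaining genes are described by what was measured of them.

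Several features of the libraries bear on every value that follows. The 0 h libraries I, II and III held 22150200, 16105148 and 24443472 reads, and the 6 h libraries held 30516970, 38577551 and 35869795, so each 6 h library was deeper than each 0 h library. Sample titles and library names disagree on time. A lane of 0 h library II and both lanes of 0 h library III are titled 3 h, the lanes of the 6 h libraries are titled 24 h or 36 h, and of the 6 lanes of the 48 h mock 3 are titled as treated. The sample index of each mock number also differs between its lanes, so the labels do not tie both lanes to a single mock library. Grouping followed the library names, and for 12 of 12 lane samples of 0 h and 6 h the nearest lane sample was of the same time by library name. For library III the nearest was its own other lane, which shares its title time. On lane 6, libraries I and II also share a title time. Only the pairs of I and II on lane 7 differ in title, so elsewhere this check cannot decide between title and library name.

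Libraries I and II of a group were close to each other and library III stood apart. A dispersion index of the counts, which is 1 where libraries differ by sampling noise alone, was 2.22 for I and II at 0 h and 43 and 36.9 for III against each of them. At 6 h it was 3.83 for I and II and 71.4 and 79.6 for III. The lanes of a library differed from each other by more than I and II did, with indices of 18.7 to 29.9 at 0 h and 5.43 to 15.6 at 6 h. For each lane of I or II, the nearest lane sample was the other library on the same lane, not its own library on the other lane. The series' design text calls the libraries biological replicates, so all 3 were kept as replicates. I and II differed by more than sampling noise, but so did the lanes of a library, so the index does not show that I and II are separate samples. P-values that count I and II as separate samples may be too small, and the count with I and II summed is given beside the main one.

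The 6 h roots differed from the 0 h roots in many genes, in near-equal numbers up and down. A gene was called when its Benjamini-Hochberg adjusted p from the quasi-likelihood test of edgeR was below 0.05, in a model of all 8 groups. Libraries were brought to a common scale by TMM, a trimmed mean of fold changes between libraries, and levels are given in CPM, the reads of a gene relative to the library size scaled in this way. A log2 fold change of 1 is a doubling. Of 23753 genes, 3342 rose (14.1% of those tested) and 3285 fell (13.8%). The median log2 fold change over all genes was 0.02. With libraries I and II of every group summed to 1 library, which leaves 2 libraries a group, 13 genes rose (0.0547%) and 81 fell (0.341%), and all 94 were among the 6627. At an unadjusted p below 0.05, 9771 genes passed with the libraries apart and 5701 with I and II summed. Leaving out 0 h library I gave 2012 fallen and 1449 risen genes, and leaving out 0 h library II gave 1917 and 1363, so the near-equal split was lost. Leaving out 6 h library I gave 3536 calls and leaving out 6 h library II gave 3563. Without either library III the count stayed above 6627, at 7233 for 0 h and 6700 for 6 h.

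Most risen genes rose by less than 2-fold, and falls were larger than rises. Among risen genes, 1106 rose by less than 1.5-fold, 1378 by 1.5-fold to 2-fold and 858 (25.7%) by at least 2-fold. Among fallen genes the corresponding counts were 665, 1251 and 1369 (41.7%). Changes of 4-fold or more were seen in 130 risen (3.89%) and 234 fallen genes (7.12%), and of 8-fold or more in 48 and 51. The median fold was 1.64 for risen and 1.86 for fallen genes, and the 10% with the largest changes began at 1.42 on the log2 scale among risen genes and at -1.80 among fallen genes. These sizes describe genes chosen by the same comparison.

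**Figure D1:**
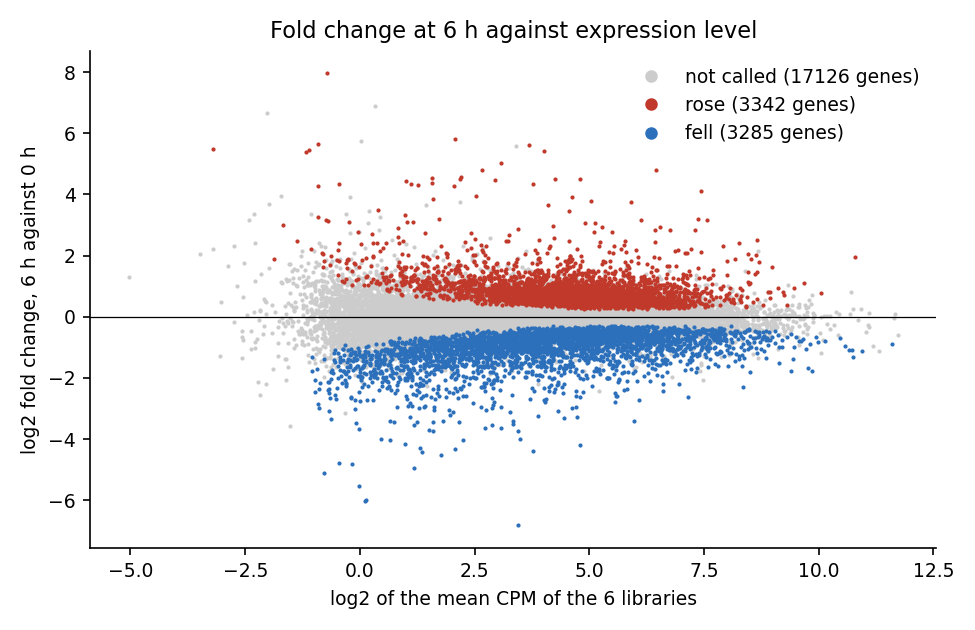
Each point is a gene, with the log2 of its mean CPM over the 6 libraries on the horizontal axis and its log2 fold change at 6 h against 0 h on the vertical axis. Red points are the 3342 risen genes, blue points the 3285 fallen genes and grey points the genes not called. Called genes of both directions lie along most of the range of levels, and 41.7% of the blue points but 25.7% of the red ones are past 2-fold.

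Over the called genes, all 3 of the 6 h libraries showed the change, library III with smaller values. The same libraries chose these genes, so agreement in direction and lack of overlap follow largely from the call and are a description. Relative to the mean of the 0 h libraries, the risen genes had a median log2 difference of 0.78 in library I, 0.77 in library II and 0.60 in library III. The fallen genes had -0.92, -0.92 and -0.79. The 6 h libraries lay all above the 0 h libraries for 3139 of the 3342 risen genes and all below for 3135 of the 3285 fallen genes. Over all 23753 genes, this held for 5926 (24.9%) above and 5482 (23.1%) below. Over all genes, the median SD of log2 CPM over 3 libraries was 0.20 at 0 h and 0.18 at 6 h, and the closeness of I and II enters these SDs.

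The called genes made up a sizeable part of the transcript pool, and the values here are a description, since the same libraries chose the genes. In roots measured whole, fewer cells of a type and less RNA per cell cannot be told apart. The median level in CPM was 19.2 at 0 h and 32 at 6 h among risen genes. Among fallen genes it went from 22.3 to 11.6, and among all genes it was 16.4 and 16.9. Per length, in RPKM, which divides the scaled reads by gene length, the median of risen genes went from 3.34 to 5.69 and that of fallen genes from 9.61 to 5.09, against 4.43 and 4.52 over all genes. Per length, fallen genes thus started at the higher level and ended near the risen genes.

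Risen genes took 9.52%, 9.38% and 11.8% of the reads in the 0 h libraries I, II and III and 19.2%, 19.1% and 16.3% in the 6 h libraries. Fallen genes took 21.9%, 22.2% and 19.3% at 0 h and 11.7%, 11.6% and 13% at 6 h. Libraries of 6 h and 0 h did not overlap in either share, which follows largely from the choice of the genes by these same libraries. In each group library III lay on the side of the other group. In the 48 h mock, which had no tunicamycin, the shares were 13.6%, 13.2% and 17.1% for risen and 16.7%, 17.2% and 13.2% for fallen genes, between the 0 h and 6 h means in both sets. Choosing genes by the gap between 0 h and 6 h favours such a place for another group, so it is a description.

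Among genes with the most reads at 0 h, falls outnumbered rises. Of the 100 genes with the most reads at 0 h, 28 fell and 2 rose, where 13.8% of all genes fell and 14.1% rose. Together the 100 held 13%, 13.1% and 11.4% of the reads in the 3 libraries. Of the 100 with the most reads at 6 h, 11 fell and 12 rose, and 71 genes were among the 100 at both times. Among the 1000 genes with the most reads at 0 h, 272 fell and 47 rose. Ranking genes at 0 h favours those that are high there, and ranking at 6 h does the reverse, where 136 of 1000 fell and 156 rose. Sorted by the mean CPM of both times into classes of 10% of the genes, the share that rose was 3.49% in the lowest class, 21.1% in the class from 24.7 to 35.5 CPM and 12.5% in the highest. The share that fell was 10.5% in the lowest class and 18% in the highest.

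Few genes had close to no reads at either time. At most 10 reads in the 3 libraries of 0 h together were found for 46 genes, of which 16 rose, where 14.1% of all genes did. Choosing genes for few reads at 0 h favours rises, and choosing them at 6 h favours falls, so these counts are a description. Of 3 genes with no read at 0 h, 2 rose. At most 10 reads over the 3 libraries of 6 h were found for 13 genes, of which 6 fell (13.8% of all genes did), and 0 genes were without a read at 6 h. The least-read gene of the table has 152 reads in total, so transcripts silent throughout the time course are not covered.

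Named identifiers were picked by a rule. A called gene qualified when its 6 h libraries did not overlap with its 0 h libraries, its mean reached 5 CPM over the 6 libraries, and each of the 6 held 10 reads or more. That left 2829 risen and 2433 fallen genes, of which the top 2 by fold change are named in each direction.

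Zm00001d010588, with a length of 2645 bp, had the largest rise among the genes that met this rule, while some called genes outside it rose further. Its level was 5.03, 5.08 and 7.96 CPM in the 0 h libraries and 207, 184 and 116 CPM in the 6 h libraries. The 6 h libraries were all far above the 0 h libraries, with library III the lowest at 6 h and the highest at 0 h. Mean levels were 6.02 ± 1.68 CPM at 0 h and 169 ± 47.6 CPM at 6 h (SD, n = 3), or 2.28 and 63.8 RPKM per length. The log2 fold change was 4.80 (SE 1.04, adjusted p = 0.00332, edgeR). At 3 h it stood at 564, 480 and 815 CPM, above every 6 h library. In the mock it stood at 71.1, 78.7 and 216 CPM, with library III of the mock above every 6 h library. Its log2 difference from the mock was 0.47 (SE 0.87), which did not pass (edgeR adjusted p = 0.892).

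Zm00001d051938 (1754 bp) stood at 1.48, 0.762 and 4.48 CPM at 0 h and at 61.4, 60.2 and 38.7 CPM at 6 h. The groups were far apart, and the 0 h libraries differed among themselves several-fold, on 32, 12 and 111 reads. The log2 fold change was 4.51 (SE 1.36, adjusted p = 0.0199, edgeR). Its call was lost when 0 h library I was left out (edgeR adjusted p = 0.0791) and when 0 h library II was (edgeR adjusted p = 0.083). It was also highest at 3 h, with 180, 162 and 636 CPM. In the mock it was at 3.34 and 2.44 CPM in libraries I and II and at 78.3 CPM in library III, so that 2 mock libraries lay beside 0 h and 1 lay above 6 h. The difference between 6 h and mock did not pass (log2 difference 0.93, SE 1.13, adjusted p = 0.814, edgeR).

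Zm00001d029183 (2662 bp) had the largest fall among the genes that met the rule, while some called genes outside it fell further. It stood at 72.3, 71.5 and 13.7 CPM at 0 h and at 3.4, 3.41 and 1.87 CPM at 6 h. Library III of 0 h was much lower than I and II but still above every 6 h library. Its mean went from 52.5 ± 33.6 to 2.89 ± 0.888 CPM, a log2 fold change of -4.18 (SE 0.78, edgeR adjusted p = 0.00128). At 3 h it was in between, with 14.6, 16.2 and 18.5 CPM. The mock libraries were nearly as low as those of 6 h, at 5.46, 5.34 and 2.77 CPM, and the difference from the mock did not pass (log2 difference -0.64, SE 0.73, adjusted p = 0.8, edgeR).

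Zm00001d022279 (1173 bp) was the most even of the 4 at 0 h, with 19.6, 22.7 and 21.6 CPM. At 6 h it was at 1.75, 1.72 and 0.53 CPM, with library III again the lowest. Its mean went from 21.3 ± 1.55 to 1.33 ± 0.695 CPM, a log2 fold change of -3.99 (SE 0.61, edgeR adjusted p = 0.000379). The mock libraries stood at 10.2, 11 and 4.95 CPM, below every 0 h library and above every 6 h library. The difference between 6 h and mock was -2.71 on the log2 scale (SE 0.59) and just missed the threshold (adjusted p = 0.0552, edgeR). Later treated libraries ranged from 0.488 to 2.08 CPM at 12 h, from 0.509 to 5.52 CPM at 36 h and from 1.73 to 2.53 CPM at 48 h. With I and II summed, the 4 named genes kept their direction and none was called: Zm00001d010588 had an adjusted p of 0.108, Zm00001d051938 of 0.167, Zm00001d029183 of 0.1 and Zm00001d022279 of 0.0624 (edgeR).

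**Figure D2:**
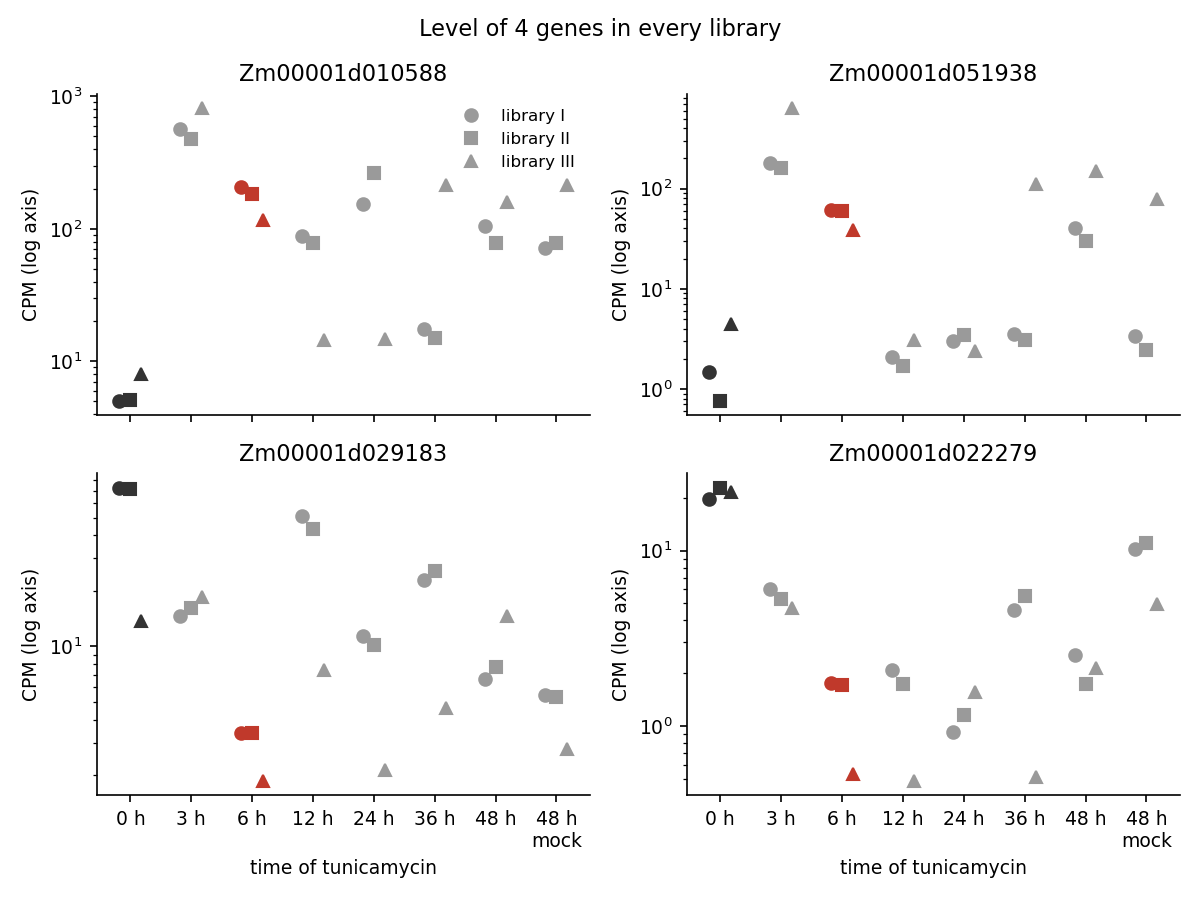
Each panel shows the level of 1 named gene in CPM on a log axis in all 24 libraries, by time of tunicamycin and in the 48 h mock, with symbols for libraries I, II and III. Black symbols are 0 h and red symbols 6 h. The risen genes peak at 3 h, at 564, 480 and 815 CPM for Zm00001d010588, and in several groups library III lies far from I and II.

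The 94 genes called with I and II summed are described here with their levels. A fit on 2 libraries a group passes mainly large changes, so their sizes follow in part from how they were chosen. Log2 fold changes of the 13 risen genes ran from 0.75 to 4.54 (median 1.53), and 10 of them rose by at least 2-fold. In CPM, the median of these 13 was 19.4 at 0 h, 26.3 in the mock and 46.7 at 6 h. Those of the 81 fallen genes ran from -4.94 to -0.72 (median -1.28), and 66 fell by at least 2-fold. In CPM, the median of these 81 was 46.1 at 0 h, 23 in the mock and 16.5 at 6 h. By fitted means, all 13 lay above the mock at 6 h, and 78 of the 81 lay below it. These genes were chosen with the same 6 h libraries, and the shares are near those of all called genes, since 95.4% of the 3342 risen genes but 4.51% of the 3285 fallen genes lay above the mock.

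The mock offers a second reference group, 48 h old in the bottles, that shares no library with 0 h. Against it, the 6 h roots differed in few genes. Calls were made for 14 genes higher (0.0589%) and 52 genes lower (0.219%) than in the mock, and 2412 genes had an unadjusted p below 0.05. Of the genes called against 0 h in the same direction, 12 were also called higher and 49 also called lower against the mock, but both comparisons use the 6 h libraries. The total of 66 became 273 by DESeq2, 15 in a model of the 2 groups alone and 1 with I and II summed. Leaving out 6 h library I or II gave 10 each, leaving out mock library I gave 11, mock library II 10 and mock library III 320. On lane 6 alone there were 320 calls and on lane 7 alone 41.

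Set against 0 h, the mock lay on the same side as 6 h. For the 3342 risen genes the median log2 fold change was 0.71 at 6 h and 0.44 in the mock, both against the same 0 h libraries. The 3285 fallen genes had -0.89 and -0.48. Between 6 h and the mock directly, the medians were 0.27 and -0.36. The 6 h libraries lay outside both the 0 h and the mock libraries for 928 risen genes (27.8% of them) and 942 fallen genes (28.7%). Over all genes this held for 1481 above (6.24%) and 1295 below (5.45%). The call itself favours genes clear of 0 h, so the gap between these shares is no result about the called genes. Clear of 0 h alone were 3139 risen and 3135 fallen genes, and 5926 above and 5482 below over all genes. These comparisons share libraries, so their values only stand side by side.

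Whole profiles were ordered in the same way. The root mean square difference of log2 CPM over all genes was 0.695 to 0.88 for the 9 pairs of a 6 h and a 0 h library, with a median of 0.847. For 6 h and mock it was 0.531 to 0.733 with a median of 0.584, and for 6 h and 3 h it was 0.513 to 0.75 with a median of 0.538. Within 6 h, libraries I and II differed by 0.206, and library III differed from them by 0.648 and 0.645. In most pairs, the distance of 6 h from the mock was no greater than that of library III from its own group.

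**Figure D3:**
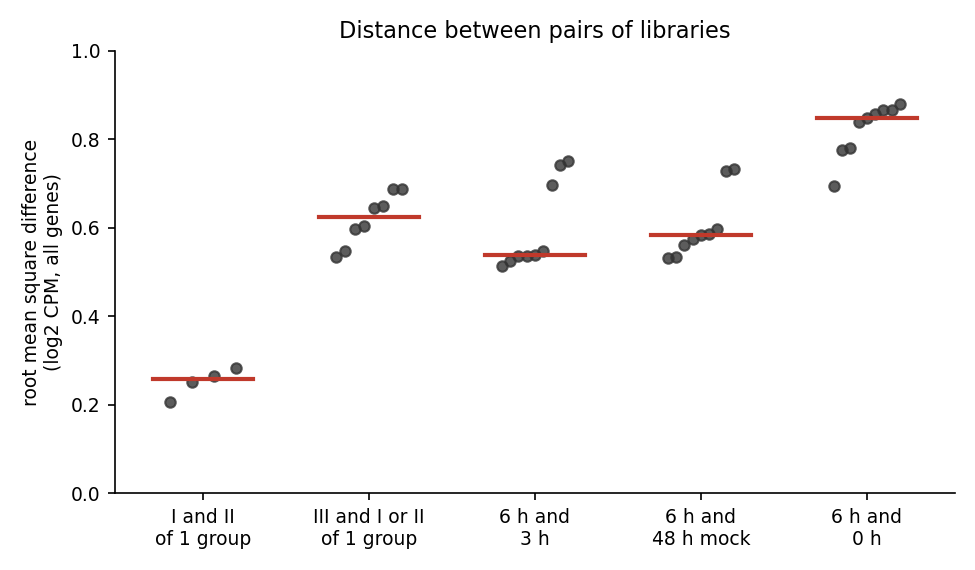
Points are pairs of libraries, and the vertical axis is the root mean square difference of their log2 CPM over 23753 genes. Red lines are medians. The median of pairs of 6 h and 0 h (0.847) is above those of 6 h and mock (0.584) and of 6 h and 3 h (0.538), and the ranges overlap, from 0.695 for the first and up to 0.733 and 0.75 for the others.

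Between 3 h and 6 h of tunicamycin, 3 genes were higher (0.0126%) and 10 lower (0.0421%) at 6 h, and 2887 had an unadjusted p below 0.05. At 3 h against 0 h, the median log2 fold change stood at 0.53 over the genes called higher at 6 h and -0.58 over those called lower, with the 0 h libraries shared. In the direct comparison of 6 h with 3 h the medians were 0.17 and -0.28. The 6 h libraries chose these genes, so medians on the side of the call follow in part from that choice. They cannot show a further change after 3 h. Of the genes called against 0 h, 2 were also called higher and 6 also called lower against 3 h. The total of 13 became 220 by DESeq2, 378 in a model of the 2 groups alone and 1 with I and II summed. Leaving out 6 h library I or II gave 1 each and 6 h library III gave 6. Leaving out 3 h libraries I, II and III in turn gave 5, 6 and 32, and 12 h library III out of the model gave 63.

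Risen genes were long and fallen genes short relative to all genes. Gene lengths recovered from the deposited values had a median of 5333 bp among risen genes, 2338 bp among fallen genes and 3513 bp among all genes. Among the shortest 10% of genes, up to 915 bp, 4.88% rose and 19.1% fell. Among the longest 10%, from 10595 bp, 26.2% rose and 2.99% fell. The median log2 fold change went from -0.25 in the shortest 10% and -0.30 in the next class to 0.30 in the longest 10%. Across genes, fold change and length had a Spearman correlation of 0.298, a description in which genes are not independent replicates.

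**Figure D4:**
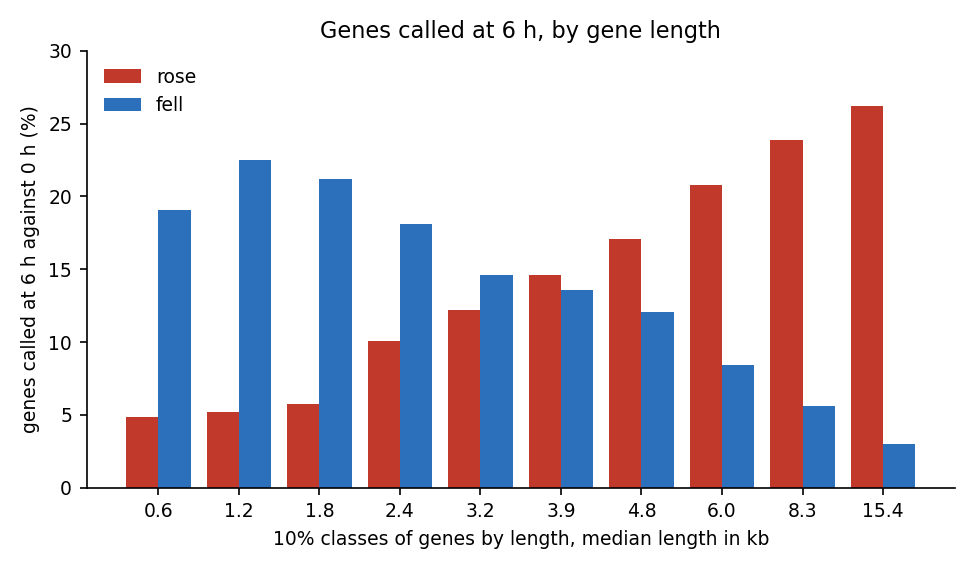
Genes were sorted by recovered length into classes of 10%, and the horizontal axis gives the median length of each class in kb. Bars give the percentage of genes in each class that rose (red) or fell (blue) at 6 h against 0 h. The risen share goes from 4.88% in the shortest to 26.2% in the longest class, and the fallen share from 19.1% to 2.99%.

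The mock, without tunicamycin, showed a relation with length too. Fold change followed length with a Spearman correlation of 0.213 in the mock against 0 h and 0.28 at 6 h against the mock, comparisons that share libraries. In single libraries, the longest 10% stood relative to the shortest 10% at -0.36, -0.41 and -0.03 on the log2 scale in 0 h libraries I, II and III, measured from the mean of all 24 libraries. In the 6 h libraries it stood at 0.37, 0.31 and 0.21, and in the mock at -0.14, -0.08 and 0.20. All 6 h libraries were thus above all 0 h libraries, and the values ranged more widely within some other groups, down to -1.09 in library II of 24 h and up to 0.60 in library II of 48 h. Library II of 24 h was the shallowest of the series, with 7701856 reads, and the only library without RPKM values for both lanes.

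With each library's trend on length taken out, a setting chosen after seeing this relation, 3099 genes rose and 3171 fell. Of these, 2488 and 2545 were also called without it. The adjusted calls had median lengths of 3600 and 3611 bp, near that of all genes, and the Spearman correlation of fold change with length was 0.00378. Both follow from the adjustment, which removes this trend by construction. All 94 genes called with I and II summed were called with the length adjustment. That fit kept I and II apart and used the same 0 h and 6 h libraries, so this is no separate check. With the reads of the 6 libraries thinned to the depth of the shallowest, also chosen after seeing the data, 3257 genes rose and 3161 fell, of which 6101 were shared with the calls at full depth.

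Next, the called genes were read at the remaining times, each relative to the 48 h mock, in libraries that belong neither to 6 h nor to 0 h. The mock libraries are common to all 5 times, so the times do not back each other independently. The median log2 distance of the 3342 risen genes above the mock was 0.10 at 3 h, where 67.3% of them were above it. At 12 h they were on the other side, with a median of -0.12 and 28.8% above the mock. At 24 h and 36 h the medians were -0.06 and -0.01, and at 48 h the median was 0.16 with 84.2% above. Over all genes, 49% to 51.1% were above the mock at these 5 times.

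The 3285 fallen genes mirrored this course. Their medians started at -0.09 (3 h), stood at 0.22 (12 h), then at 0.03 (24 h) and -0.03 (36 h), and ended at -0.23 (48 h). The share below the mock was 63.9% after 3 h, 22.8% after 12 h and 84.4% after 48 h. At 24 h the libraries went different ways, with medians of the risen genes of -0.06, -0.28 and 0.14 in libraries I, II and III. At 48 h all 3 libraries had risen genes above the mock (0.12, 0.16 and 0.23) and fallen genes below it (-0.15, -0.28 and -0.24). With the model refitted and the genes called anew, the 3 h medians without library II of the mock were 0.04 and -0.03 for risen and fallen genes, and without library III of the mock 0.20 and -0.18, so 1 mock library moved the 3 h values by over 1.5 times. At 48 h the median of risen genes was 0.10 without library II and 0.27 without library III of the mock.

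Since length also moved between libraries, the share at 48 h was set beside that of all genes in the same length class. Over all genes, the fold change at 48 h against the mock had a Spearman correlation of 0.208 with length. Among risen genes, 70.8% of those up to 2331 bp, 82.2% of those up to 4921 bp and 88.6% of longer ones were above the mock at 48 h. Of all genes in these length classes, 39.7%, 47.3% and 63.5% were. Among fallen genes, 85%, 83.7% and 83.9% were below the mock, against 60.3%, 52.7% and 36.5% of all genes. In each class the called genes lay further to their side than all genes of that class. The classes are broad, from 4922 to 128402 bp in the longest, so lengths can still differ between called and all genes within a class. No test was run on these shares.

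**Figure D5:**
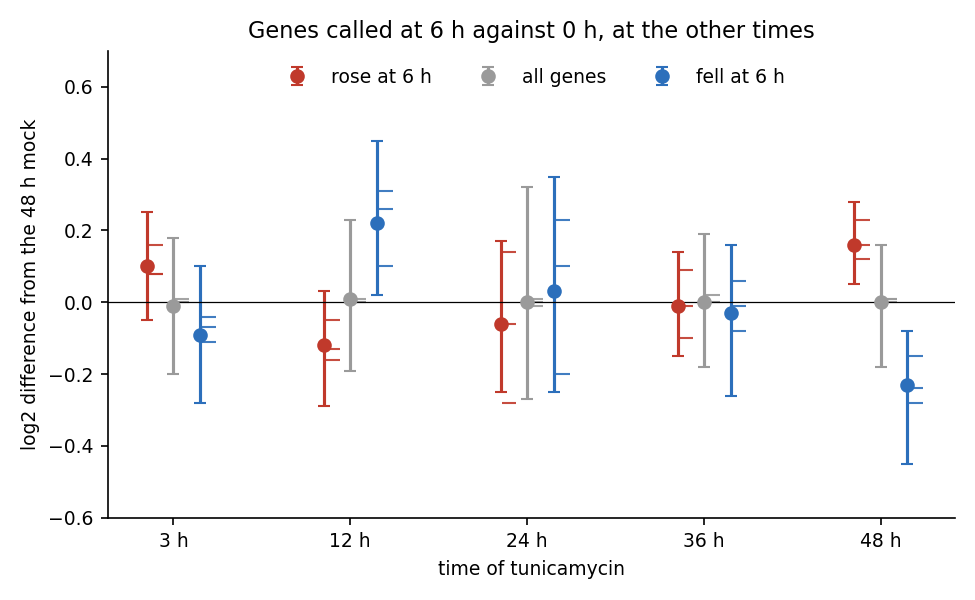
Circles are medians over genes of the log2 difference from the 48 h mock at 5 times of tunicamycin, for the 3342 genes that rose at 6 h (red), the 3285 that fell (blue) and all genes (grey). Vertical bars span the middle 50% of genes, and short ticks beside them are the medians in single libraries. The called sets lie on their own side of 0 at 3 h and 48 h (0.16 and -0.23), on the opposite side at 12 h, and near 0 at 24 h and 36 h.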

How the data were processed

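Paired-end reads of 150 bp were processed by the authors, and STAR, featureCounts and edgeR are named, without versions, in the submitters' processing notes. The genome build, the annotation and the use of strand were not given in the sources used here, so reads of overlapping genes and of near-identical copies are uncertain to that extent. The authors deposited whole-number counts for 23753 genes in 24 libraries, in which lanes are summed, and RPKM values for 47 lane samples. Python 3.11.15 was used to recover lane reads and gene lengths, by finding the lengths that turn the deposited RPKM into whole reads. Of the lane values 100% were whole within 0.001 reads, and the lane sums differed from the counts by at most 0. Whether the lengths, from 132 to 128402 bp, hold introns is not stated.

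Counts were tested with edgeR 4.0.16 in R 4.3.3 by glmQLFit and glmQLFTest with TMM scaling, in 1 model of 8 groups and with Benjamini-Hochberg adjustment over all genes. The low-count filter removed 0 genes, and the common biological coefficient of variation was 0.2367. Each SE is the fold change over the root of its F statistic. Log2 CPM used a prior count of 2. DESeq2 1.42.0 served as an alternative. The steps were tested on simulated counts, drawn independently for each library. These held neither the closeness of I and II nor a trend on length, so that test does not bear on either.

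Same-numbered libraries of 0 h and 6 h deviated together from their group means (correlations of 0.165, 0.161 and 0.213), as did those of mock and 6 h (0.138, 0.156 and 0.185), so a replicate block was fitted too. Libraries I and II correlated with each other's numbers as well. With 6 h library II, 0 h library I had 0.177 and mock library I had 0.167, more than either had with 6 h library I. The values for 0 h and mock thus set library III apart from I and II and do not show pairing by number. For 3 h and 6 h the values were lower, at 0.0855, 0.0756 and 0.0765, which does not show pairing either.

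Library totals of the 2 groups ran from 16105148 to 38577551 reads. Genes were named by the rule given with them, and planned lists of the unfolded protein response and of root cell types could not be matched to identifiers. The comparison, the lists and the named-gene rule were chosen with earlier results of these data known.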

Additional observations from a re-analysis of the deposited data

How the results depend on the processing

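The count of 6627 calls at 6 h against 0 h stayed within 1.5 times under another scaling, DESeq2, smaller models and either lane. Length adjustment and equal depth kept it there too (5187 to 8295 in all these settings), but not always with the same genes. Both other filter settings tested the same 23753 genes and gave the same 6627 calls, so they are no separate check. Of the 6627, 3786 were called in the same direction on lane 7, 5503 on lane 6, 5423 with only the compared groups in the model and 5033 with length adjustment. Summing libraries I and II gave 94, and leaving out 1 library gave 3280 to 7233. A fit with the replicate block gave 8164 (4221 higher, 3943 lower). Against the mock, the 66 calls became 273 with DESeq2, 15 with only the compared groups in the model, 1 with I and II summed, 320 on lane 6, 41 on lane 7, 10 to 320 without 1 library and 94 with the replicate block. Against 3 h, the 13 calls became 220, 378 and 1 in the first 3 of these settings, 25 without the 24 h libraries, 63 without library III of 12 h, 185 with the replicate block, 20 with length adjustment and 1 to 32 without 1 library. The numbers are not shown to pair libraries between groups, although each library of 3 h correlated best with its own number at 6 h, a hint from the data only.

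With the genes called in each setting, the 3 h median difference from the mock (0.095 for risen and -0.093 for fallen genes) was 0.29 and -0.195 with I and II summed, 0.197 and -0.224 on lane 6, and 0.036 to 0.202 and -0.183 to -0.025 without 1 library. On lane 7 the fallen genes had -0.049. The 48 h median of risen genes (0.159) was 0.257 with I and II summed, 0.221 on lane 6, 0.097 on lane 7 and 0.104 to 0.268 without 1 library. That of fallen genes (-0.233) was -0.35 to -0.164 without 1 library. The log2 ratio of read shares, 6 h to 0 h, went from 0.836 to 1.663 for risen and from -0.802 to -1.164 for fallen genes with I and II summed, and for fallen genes it was -0.952 to -0.741 without 1 library. No direction reversed. The cause of these moves was not tested. Summing and leaving out a library also left fewer samples in the fit.

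The 0 h and 6 h libraries hold 16105148 reads or more, but single genes rest on few reads (12 in the least-read library of a named gene). How far counting error and the spread between libraries each limit precision was not tested. Chromosomes, gene functions and the tissue label were not analysed here.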
